A study of Homo sapiens with 6 samples.

Results

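The CXC chemokine cluster of chromosome 4 holds 9 listed genes within 360.6 kb: CXCL8, CXCL6, PF4V1, CXCL1, PF4, PPBP, CXCL5, CXCL3 and CXCL2, in that order along the chromosome. R-loop peaks were taken over each gene with 1000 bp on each side, called its locus here, and between the outermost loci, each peak counted once. This gave 28 peaks out of 197102 in 3 lists, 19 of them over a member and 9 between members, and they fell on 16 distinct sites. The 9 genes belong to 19835 protein-coding genes measured in the same way.

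Peaks came from MapR, which cuts chromatin around RNA-DNA hybrids by means of an RNase H and micrococcal nuclease fusion (RH-MNase). The cells were wild-type IMR90, a human embryonic lung fibroblast line, and all were cultured at 2% oxygen. Proliferating cells carried a control vector, senescent cells ectopically expressed Ras, the oncogene used to bring on senescence, and quiescent cells were starved. There was 1 RH-MNase library for each state, and the matching GST-MNase libraries, made with the enzyme without RNase H, are not analysed here. Which Ras construct and promoter were used, and how cells were starved, is not stated in the labels.

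R-loops form where a nascent RNA anneals back to its template DNA and leaves the other strand single, often near the start of a gene. CXC chemokines are small secreted proteins that attract leukocytes. CXCL1, CXCL2, CXCL3, CXCL5, CXCL6 and CXCL8 draw neutrophils through the receptors CXCR1 and CXCR2, are switched on by NF-kappaB in fibroblasts and other cells, and are typical of the secretory phenotype of senescent cells. PF4, PF4V1 and PPBP encode chemokines stored in platelets and made mainly by megakaryocytes.

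Promoter sequences are given first, since the members share them to different degrees. RefSeq sequences of GRCh38.p14 from 250 bp before to 50 bp after the start site were matched for 8 of the 9 members; PF4 had no match. The 9-letter NF-kappaB motif GGAATTTCC, searched on both strands, was found in 6 of these 8 promoters and in 66 of 15811 protein-coding promoters (0.417%). Only this exact spelling was searched. Other spellings of NF-kappaB sites are not counted, so 0.417% is not the share of promoters with any such site, and the contrast holds for this spelling alone. All 6 were the neutrophil-attracting chemokines, and each copy began 77 to 91 bp before the start site, on the strand of the gene. Windows of 40 bases around it are shown 5′ to 3′ on the strand of the gene, with the motif in capitals, to show how the flanks fall into pairs and triplets. CXCL1 lies at chr4:73869299-73869338 on the plus strand, CXCL2 at chr4:74099249-74099288 on the minus strand and CXCL3 at chr4:74038744-74038783 on the minus strand. CXCL5 lies at chr4:73998744-73998783 on the minus strand, CXCL6 at chr4:73836573-73836612 on the plus strand and CXCL8 at chr4:73740462-73740501 on the plus strand.
CXCL1: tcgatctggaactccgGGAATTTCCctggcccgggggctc
CXCL2: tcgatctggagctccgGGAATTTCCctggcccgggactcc
CXCL3: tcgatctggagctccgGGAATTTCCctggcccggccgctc
CXCL5: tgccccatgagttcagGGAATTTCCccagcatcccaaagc
CXCL6: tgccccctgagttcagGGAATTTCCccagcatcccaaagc
CXCL8: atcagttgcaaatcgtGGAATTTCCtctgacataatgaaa

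The flanks of the motif were nearly the same in CXCL1, CXCL2 and CXCL3, and again in CXCL5 and CXCL6, while CXCL8 stood alone. Over the whole 300 bp windows, CXCL6 and CXCL5 were 83.1% identical after global alignment with a longest shared run of 45 bases. CXCL1 and CXCL3 were 82.5% identical (longest run 25 bases), CXCL3 and CXCL2 73.7% (37 bases) and CXCL1 and CXCL2 69.7% (42 bases). No other pair passed 52.6% identity or a shared run of 12 bases. Reads that fall in such runs may map to more than 1 member. The read length and the treatment of such reads are not stated, and their part in the peaks was not tested.

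Whole promoters of 3 members show the range, each as the 250 bases before the start site with the same motif in capitals. CXCL3 had the highest peak coverage of the cluster, CXCL8 had peaks in proliferating cells alone, and PPBP had none. CXCL3 is at chr4:74038690-74038939 on the minus strand, CXCL8 at chr4:73740319-73740568 on the plus strand and PPBP at chr4:73988191-73988440 on the minus strand.
CXCL3: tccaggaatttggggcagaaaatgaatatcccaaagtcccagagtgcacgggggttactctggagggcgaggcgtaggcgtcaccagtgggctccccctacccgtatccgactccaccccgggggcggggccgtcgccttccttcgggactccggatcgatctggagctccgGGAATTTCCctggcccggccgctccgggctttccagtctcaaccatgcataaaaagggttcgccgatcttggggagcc
CXCL8: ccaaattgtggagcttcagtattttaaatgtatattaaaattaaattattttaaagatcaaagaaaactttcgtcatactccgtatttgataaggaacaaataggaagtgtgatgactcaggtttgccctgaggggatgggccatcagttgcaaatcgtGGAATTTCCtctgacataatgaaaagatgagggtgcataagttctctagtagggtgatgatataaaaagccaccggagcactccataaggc
PPBP: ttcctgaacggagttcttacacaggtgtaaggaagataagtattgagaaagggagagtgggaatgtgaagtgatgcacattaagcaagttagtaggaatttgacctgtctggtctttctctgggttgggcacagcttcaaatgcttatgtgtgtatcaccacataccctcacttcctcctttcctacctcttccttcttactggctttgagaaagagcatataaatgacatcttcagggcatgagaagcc

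CXCL1, CXCL2 and CXCL3 have promoters rich in G and C, with 66.3%, 65% and 64.3% GC and 22, 22 and 24 CpG dinucleotides in 300 bp, close to the median of all protein-coding promoters (62.7% and 22). CXCL6 had 60.0% GC and 8 CpG, CXCL5 58.7% and 9, and PF4V1 54.0% and 5. CXCL8 (39.3% and 4) and PPBP (44.7% and 1) are AT-rich, and 5.21% and 10.9% of promoters had less GC. R-loops are often reported where the strand of the gene holds more G than C. GC skew, the excess of G over C divided by their sum, was negative in 6 of the 8 members, from -0.27 in CXCL6 and -0.25 in CXCL5 to -0.04 in PF4V1, with CXCL1 at -0.11, CXCL2 at -0.13 and CXCL3 at -0.08. It was positive in CXCL8 (0.14) and PPBP (0.015), the latter close to the median promoter (0.0081). The members with the broadest peaks had less G than C on the strand of the gene in this window. It runs from 250 bp before to 50 bp after the start. Skew farther into the gene, where these peaks also lie, was not measured, so a link of skew and peaks was not tested.

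**Figure D1:**
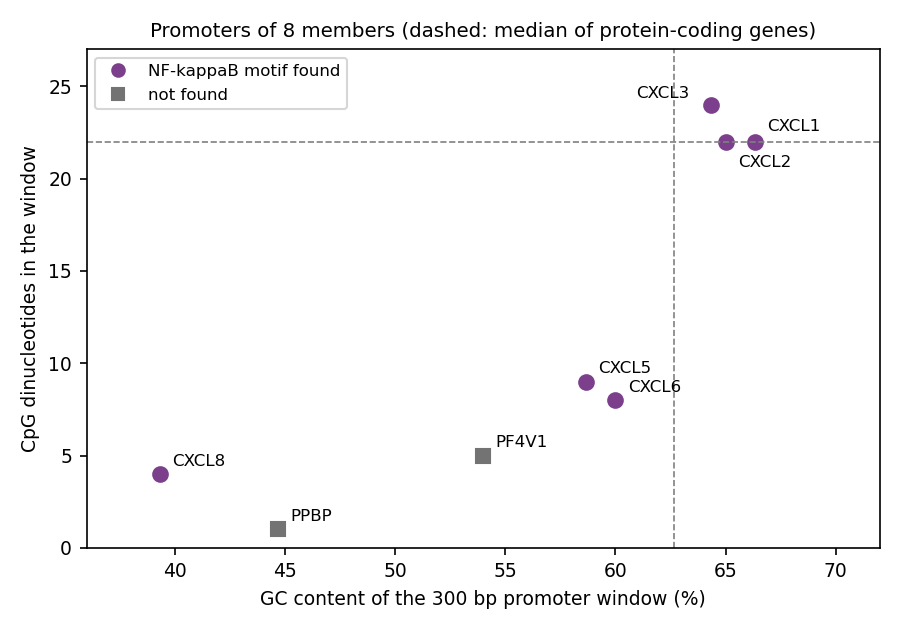
GC content (x axis, percent) against the number of CpG dinucleotides (y axis) in the 300 bp promoter windows of 8 members, with circles where the NF-kappaB motif was found, squares where it was not, and dashed lines at the medians of all protein-coding promoters. CXCL1, CXCL2 and CXCL3 sit together at 64.3 to 66.3% GC, and CXCL8 and PPBP lie lowest in GC at 39.3 and 44.7%.

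Other motifs were rarer among the members. The AP-1 motif TGANTCA was found in CXCL8 alone, 137 bp before its start (5.7% of all promoters). The C/EBP motif TTGCNNAA, searched on both strands, was found in CXCL2 and PPBP, in each on the strand opposite to the gene (8.4% of promoters). Only exact matches were counted. TTGCAAAT in the CXCL8 promoter shown above, which differs from the pattern in its last letter, was thus left out. TATAAA on the strand of the gene was found in CXCL8, PPBP and PF4V1 (6.95% of promoters), 31 bp before the start in CXCL8 and PPBP and 221 bp before it in PF4V1. The NF-kappaB motif lay wholly under a proliferating peak in CXCL1, CXCL2, CXCL3 and CXCL5, under a senescent peak in these 4 and CXCL6, and under a quiescent peak in CXCL2 and CXCL3. Over all 66 promoters with this motif, 72.7% had the start site under a proliferating, 47.0% under a senescent and 16.7% under a quiescent peak. These 66 include the 6 members. Over all 15811 protein-coding promoters the shares were 65.2%, 40.6% and 10.5%, and the difference was not tested.

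The proliferating list held 101802 peaks over 85.4 Mb, the senescent list 85564 over 54.1 Mb and the quiescent list 9736 over 4.12 Mb. Read depth is unknown, so counts and coverage may differ between lists for that reason alone, and with 1 library per state no test between states was possible. Each list gives a whole-number score per peak, at least 10, with no stated scale; it is the authors' value and ranks peaks within a list only. The fibroblast genes COL1A1, COL1A2, VIM and THY1 had peaks in both the proliferating and the senescent list, and so did the platelet genes ITGA2B and GP9, while the platelet gene PF4, itself a member, had none in any list. The lists hold no expression levels, so the labelled cell type was not checked further.

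Peaks lay over 7 of the 9 members in the proliferating list, 6 in the senescent and 2 in the quiescent one. Over all protein-coding genes the shares with a peak were 83.4%, 80.3% and 34.4%, so the members' counts are near this background. It takes in genes of any length and was not matched to the members' short loci. PF4 and PPBP had no peak in any list. CXCL1, CXCL2, CXCL3, CXCL5, CXCL6 and PF4V1 had peaks in both proliferating and senescent cells, CXCL8 in proliferating cells alone, and CXCL2 and CXCL3 in all 3 states. The start site itself was under a peak in 7 of 8 members in the proliferating list, 5 in the senescent and 1 in the quiescent list, against 65.2%, 40.6% and 10.5% of 15811 protein-coding genes with a known start. The 7 were all but PPBP, the 5 were CXCL1, CXCL2, CXCL3, CXCL5 and CXCL6, and the 1 was CXCL3.

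The covered percent is the share of a locus under peaks. Across the 9 members its median was 18.0% in proliferating cells, 19.4% in senescent and 0% in quiescent ones. Over all protein-coding genes it was 5.90%, 3.19% and 0%. The members' loci span 3188 to 5148 bp, and the same peak fills more of a short locus than of a long one. These medians were not matched for length, and windows of 1000 bp at the start site are compared below. From proliferating to senescent cells 5 of the 9 members had a higher covered percent, where 13.3% of all genes did, and 2 a lower one, where 72.5% did. The 5 were CXCL1, CXCL2, CXCL3, CXCL5 and CXCL6, and each differed by less than 1.5-fold. None of the 9 was at least 1.5-fold higher (6.09% of genes), and 2, CXCL8 and PF4V1, were at least 1.5-fold lower or lost their peaks (49.5% of genes). When the proliferating list was shortened by score until it covered no more bases than the senescent one, 6 members were higher and none lower, where 30% of all genes were higher and 52.9% lower. With the gene alone in place of the locus the balance turned, with 3 members higher and 4 lower, where 14.9% of all genes were higher and 69.2% lower.

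**Figure D2:**
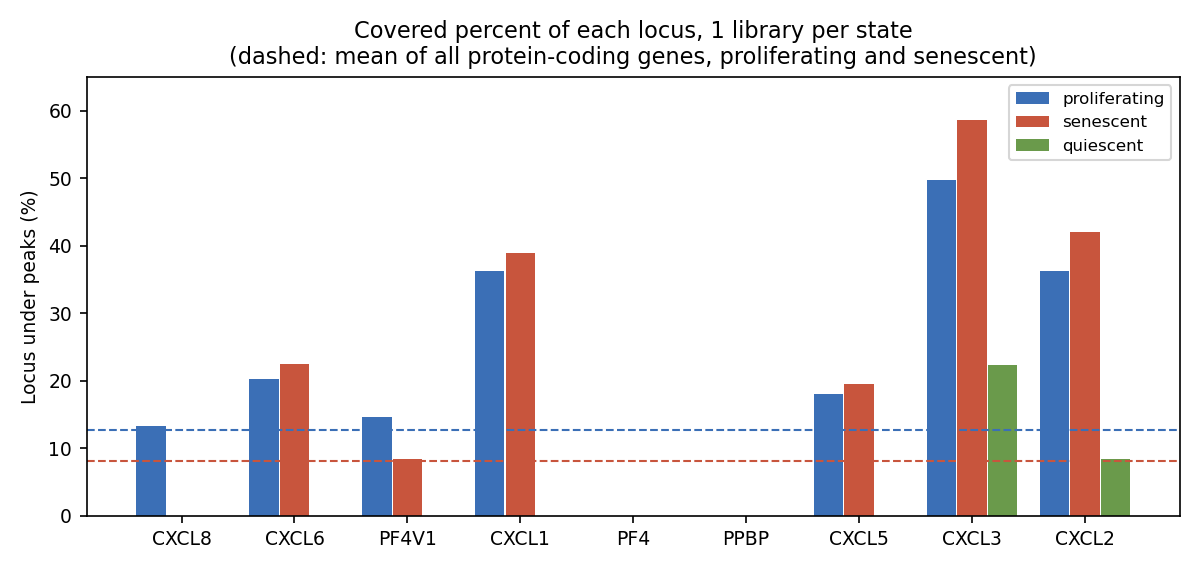
Percent of each locus under peaks (y axis) for the 9 members in genome order (x axis), with 1 bar per library and dashed lines at the mean of all protein-coding genes in the proliferating (12.7%) and senescent (8.04%) lists. The senescent bar is slightly above the proliferating one in CXCL6, CXCL1, CXCL5, CXCL3 and CXCL2, and PF4 and PPBP have no bar.

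CXCL3, which encodes the chemokine GRO-gamma, was the most covered member in every state. It spans chr4:74036589-74038689 on the minus strand, and 49.8% of its locus was under peaks in proliferating cells, 58.5% in senescent ones and 22.4% in quiescent ones. Covered percents below CXCL3's were found in 95.0%, 99.0% and 99.8% of protein-coding genes in the 3 lists. The CXCL3 locus is 4101 bp long, and these ranks were not matched for locus length. In proliferating cells a peak of 2038 bp ran from 1192 bp before to 845 bp after the start, and a second of 195 bp lay at 1301 to 1495 bp inside the gene. In senescent cells 1 peak of 2401 bp ran from 940 bp before to 1460 bp after the start and bridged both positions. The quiescent peak was 917 bp wide and ran from 624 bp before to 292 bp after the start. Scores were 84, above 99.3% of the proliferating list, 32 in the senescent list (above 90.6%) and 32 in the quiescent list (above 88.0%). Without flanks, 49.5% of the CXCL3 gene was covered in proliferating cells, 69.5% in senescent and 13.9% in quiescent ones. The lncRNA gene LOC105377275 begins just beyond the start of CXCL3, at chr4:74038945-74042622, and all 3 of the peaks over the start reach into it. The lists carry no strand, so hybrids of either gene cannot be told apart there.

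CXCL2, the GRO-beta gene, lies at the end of the cluster at chr4:74097040-74099195 on the minus strand. Peaks took up 36.3% of the locus in proliferating cells, 42.1% in senescent and 8.40% in quiescent ones. The proliferating peak (1509 bp, score 43) ran from 494 bp before to 1014 bp after the start, and the senescent peak (1749 bp, score 17) from 323 bp before to 1425 bp after it. The quiescent peak (349 bp, score 12) lay wholly before the start, from 350 to 2 bp. The senescent peak thus began nearer to the start and reached farther into the gene, which was 66.1% covered without flanks against 47.1% in proliferating cells. Its score was below the senescent median of 19. With only the peaks that reach the median score of each list, the difference between senescent and proliferating cells turned from 5.77 to -36.3 percentage points.

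CXCL1, the GRO-alpha gene, lies at chr4:73869393-73871308 on the plus strand. Peaks covered 36.2% of its locus in proliferating and 38.9% in senescent cells, and it had no quiescent peak. The proliferating peak (1499 bp, score 33) ran from 1080 bp before to 418 bp after the start. The senescent list had 2 peaks here, one of 875 bp (score 23) from 678 bp before to 196 bp after the start and one of 647 bp (score 24) from 528 to 1174 bp inside the gene. The gene without flanks was 21.9% covered in proliferating and 44.1% in senescent cells. Beyond the start, CXCL1 was the single member at least 1.5-fold higher in senescent cells, with 41.9% of the first 1000 bp covered in proliferating and 66.9% in senescent cells (3.68% of genes passed that fold).

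CXCL5 and CXCL6, which encode ENA-78 and GCP-2, showed like peaks over their start sites in both states. CXCL6, at chr4:73836678-73838760 on the plus strand, had 20.3% of its locus covered in proliferating and 22.4% in senescent cells. Its proliferating peak (827 bp, score 52) ran from 55 bp before to 771 bp after the start, and the senescent peak (915 bp, score 34) from 350 bp before to 564 bp after it. The peak lay about as wide but further upstream in senescent cells. CXCL5, at chr4:73995642-73998677 on the minus strand, had 18.0% covered in proliferating and 19.4% in senescent cells. Its peaks ran from 339 bp before to 566 bp after the start in proliferating (906 bp, score 28) and from 476 bp before to 502 bp after it in senescent cells (979 bp, score 33). Neither gene had a quiescent peak. Without flanks the direction turned in both, to -9.94 percentage points in CXCL6 and -2.11 in CXCL5. The lncRNA gene LOC124900715, at chr4:73998228-74007717, overlaps the start of CXCL5 and shares both of its peaks.

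CXCL8, the interleukin-8 gene, is the most distant member, 93.0 kb from CXCL6, at chr4:73740569-73743716 on the plus strand. In proliferating cells 13.2% of its locus was covered, by a peak of 485 bp (score 12) from 824 to 340 bp before the start and one of 195 bp (score 23) from 5 bp before to 189 bp after it. The senescent and quiescent lists had none. A width of 195 bp is the smallest in the proliferating list, and the score of 12 was above only 1.61% of it, so CXCL8 rested on small peaks of low to middling rank. At equal covered length both were gone from the proliferating list too, and the difference of -13.2 percentage points became 0. The NF-kappaB and AP-1 motifs shown above fell between the 2 peaks and under neither.

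Of the platelet chemokine genes, PF4 and PPBP had no peak and PF4V1 had 2 proliferating and 1 senescent. PF4V1, a close copy of PF4 at chr4:73853296-73854483 on the plus strand, had 14.6% of its locus covered in proliferating and 8.44% in senescent cells. Its proliferating peak at the start (451 bp, score 16) ran from 131 bp before to 319 bp after it, while the senescent peak (269 bp, score 26) lay wholly before the start, from 282 to 14 bp. A second proliferating peak of 195 bp (score 14) began 985 bp beyond the end of the gene, just inside the limit of 1000 bp. The nearest peaks outside that limit were 4443 bp from CXCL3 in the senescent list and 6635 bp from CXCL1 in the proliferating list. The difference at PF4V1 turned from -6.21 to 8.44 percentage points at equal covered length and likewise with only the peaks that reach the median score, 22 in the proliferating list. PF4 (chr4:73980811-73982124) and PPBP (chr4:73986439-73988190), neighbours 4.314 kb apart, stood in a stretch without peaks.

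**Figure D3:**
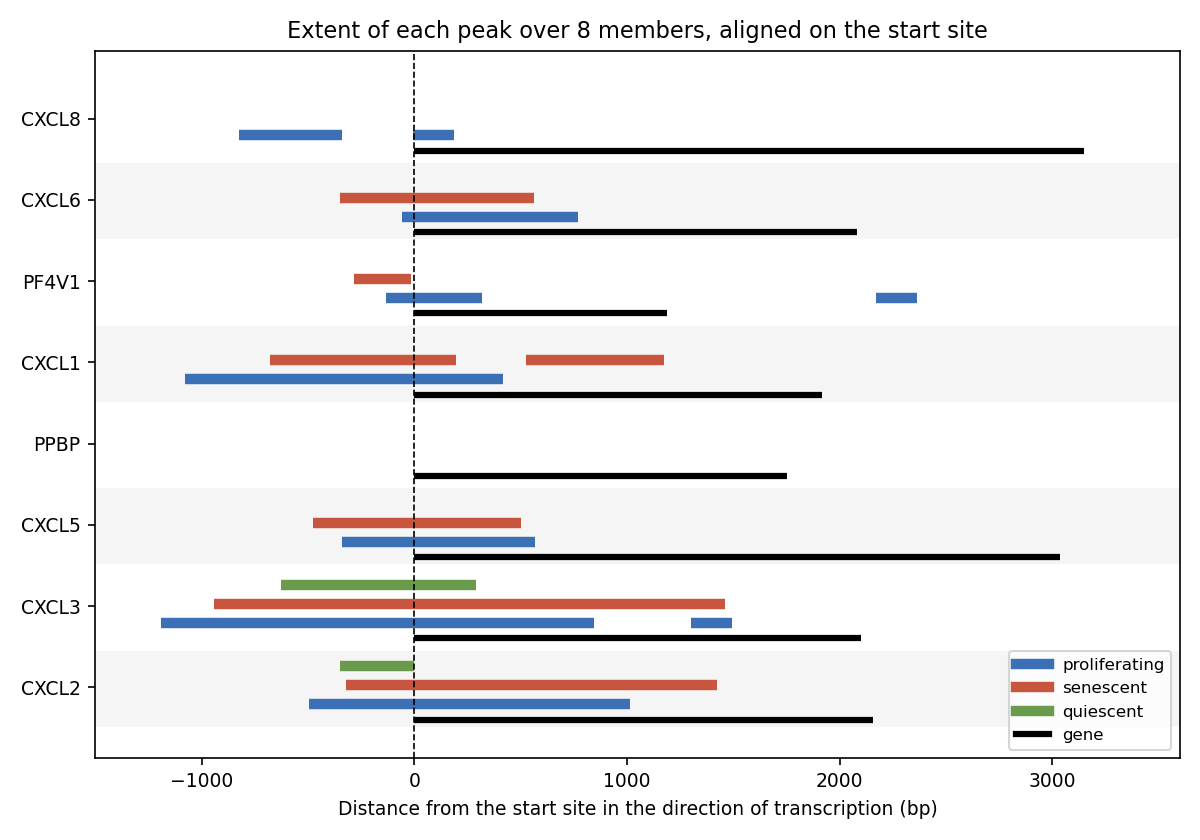
Extent of every peak over 8 members, aligned on the start site, with distance in the direction of transcription on the x axis (bp) and 1 row of bars per library above the gene in black. CXCL1, CXCL2 and CXCL3 have senescent bars that reach 1174, 1425 and 1460 bp into the gene, and PPBP has no bar.

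In the 1000 bp before the start, 2 of 8 members were at least 1.5-fold lower in senescent than in proliferating cells (40.2% of genes) and 2 at least 1.5-fold higher (4.06% of genes). The lower ones were CXCL8 (49.0% and 0%) and CXCL2 (49.4% and 32.3%), and the higher ones CXCL6 (5.5% and 35%) and PF4V1 (13.1% and 26.9%). In the 1000 bp after the start, CXCL8 (19.0% and 0%) and PF4V1 (32.0% and 0%) were lower (37.3% of genes). CXCL2 was covered throughout those 1000 bp in both states, and CXCL3 had 84.6% and 100%. On average over the 8 members, coverage before the start was 43.9% in proliferating and 38.0% in senescent cells, and after it 51.4% and 46.7%. The medians after the start went the other way, 49.3% and 53.4%, and CXCL8 and PF4V1 were the members at 0% in senescent but not in proliferating cells there. The means over all genes were 48.2% and 29.0% before and 57.3% and 36.9% after the start. The members' averages were thus below those of all genes in proliferating and above them in senescent cells, as a description of these 2 libraries.

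Quiescent cells had 2 peaks in the cluster, those of CXCL3 and CXCL2, and both overlapped a proliferating and a senescent peak. In the whole quiescent list 99.4% of peaks overlapped a proliferating and 94.1% a senescent one. In quiescent cells 7 of the 9 members were at least 1.5-fold less covered than in proliferating cells (83.2% of all genes). At least 1.5-fold less covered than in senescent cells were 6 of the 9 (78.4% of all genes). These were all the members with a peak in the proliferating and the senescent list, and 83.4% and 80.3% of all genes had one there. The members' counts are thus near the background, which was not matched for locus length. The quiescent list was also the shortest. With the proliferating and senescent lists shortened to their 9736 highest peaks, the full length of the quiescent list, 2 members kept a peak in proliferating cells, CXCL3 and CXCL6. In senescent cells 3 did, CXCL3, CXCL5 and CXCL6, and in quiescent cells 2, CXCL3 and CXCL2. The share of all genes with a peak in the shortened lists was not computed, so these counts have no background beside them. CXCL2 then had 8.40% of its locus covered in quiescent cells and none in the other states, so its direction turned. That turn comes with the unequal cut. The lowest scores kept were 50 in the proliferating, 30 in the senescent and 10 in the uncut quiescent list. CXCL2 peaks of score 43 and 17 were thus removed, while its quiescent peak of score 12 stayed.

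Between the genes, 9 peaks marked 6 sites, of which 3 were shared by proliferating and senescent cells, 1 was proliferating alone and 2 were senescent alone. One shared site covered the whole of CXCL1P1, a pseudogene derived from CXCL1, with a proliferating peak of 777 bp (score 19) and a senescent peak of 1119 bp (score 20). Another lay 12.0 to 12.2 kb beyond CXCL1, with a proliferating peak of 261 bp that scored 46, above 87.1% of its list, and a senescent peak of 560 bp (score 18). The third lay 45.2 to 45.5 kb beyond CXCL1, where a proliferating peak of 1199 bp (score 31) and a senescent peak of 341 bp (score 21) met at their edges. The proliferating peak by itself (648 bp, score 29) lay 6.635 kb before CXCL1. The senescent ones lay 15.4 kb from PF4 (418 bp, score 17) and 4.443 kb beyond CXCL3 (227 bp, score 23). The other 4 pseudogenes between the outermost members, PPBPP1, HNRNPA1P55, PPBPP2 and LOC643014, and the RN7SL218P copy had no peak within 1000 bp.

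**Figure D4:**
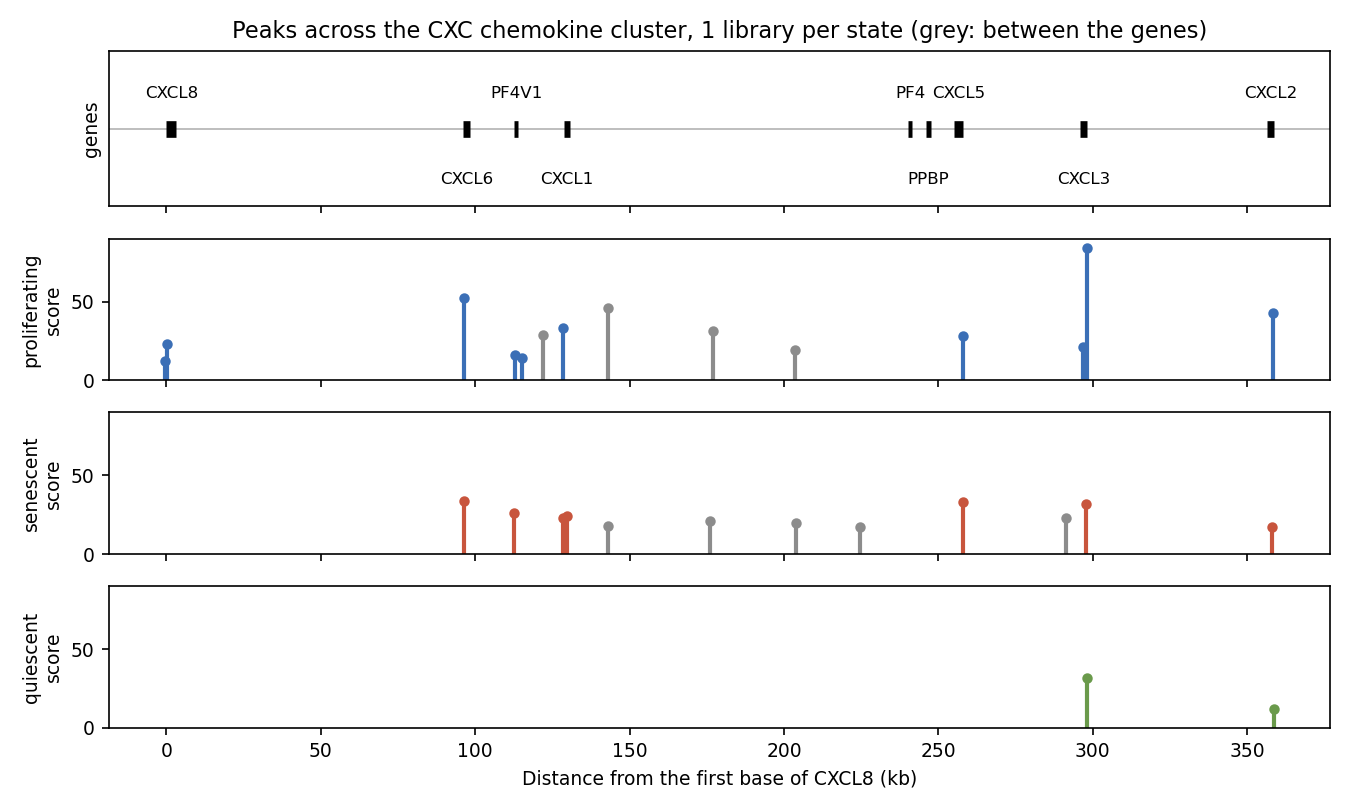
The cluster drawn to scale from the first base of CXCL8 (x axis, kb), with the genes on top and below them each library's peaks at their score (y axis, no unit; scores rank peaks within a list and are not comparable between panels), coloured over a member and grey between members. The proliferating panel shows 14 peaks, the senescent 12 and the quiescent 2, the last at CXCL3 and CXCL2.

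Of the 14 proliferating peaks 10 overlapped a senescent one (71.4%, beside 49.9% of that whole list), and of the 12 senescent peaks 9 overlapped a proliferating one (75%, beside 65.7%). With a mutual overlap of 50% or more required, the number was 6 of each, and the share of the whole lists under that rule was not computed. Over the 16 sites, 2 were found in all 3 states, 7 in proliferating and senescent cells, 4 in proliferating and 3 in senescent cells alone. The widths of the cluster's peaks had medians of 712.5 bp in proliferating and 761.0 bp in senescent cells, beside 550 and 468 bp in the whole lists.

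The span of the cluster held 3.88 proliferating, 3.33 senescent and 0.555 quiescent peaks per 100 kb, and 3.10%, 2.91% and 0.351% of it was covered. In the 500 kb before it coverage was 2.22%, 1.12% and 0.103%, and in the 500 kb after it 2.74%, 1.31% and 0.153%. The senescent coverage was close to the proliferating one inside the span, and on either side it was lower. Medians were 2.15% and 1.26% over 6309 windows of the same length that hold a gene. Of the 9 protein-coding genes within 500 kb, 5 were less covered in senescent cells and 1 more, where 72.5% and 13.3% of all genes were. AREG (12.4% and 9.62%) and EREG (8.99% and 4.48%) encode growth factors of the EGF family. MTHFD2L, a folate enzyme gene, had 2.28% and 0.591%, ANKRD17 2.01% and 0.963%, and AFP, the alpha-fetoprotein gene, 2.31% and none. RASSF6 had 2.39% and 2.80%, and ALB, AFM and EPGN had no peak. INKILN, a lncRNA gene next to CXCL8 and named after its values were seen, had 4 proliferating peaks over 10.6% of its locus and 1 senescent peak over 3.06%, while UMLILO inside it had none.

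Other genes of the pathway were read from written lists. Of 7 other CXC chemokine genes 4 had a peak in each of the proliferating and senescent lists and none in the quiescent list, 3 being at least 1.5-fold lower in senescent cells (49.5% of all genes) and none higher (6.09%). CXCL12, the stromal chemokine that binds CXCR4, had 17.9% and 9.30%, CXCL16 18.1% and 2.85%, and CXCL14 4.42% and 5.68%. CXCL9, CXCL10 and CXCL11, the interferon-induced group farther along chromosome 4, had no peak. Of 7 receptor genes 3 had a peak in each of those lists, CXCR5 (23% and 30.2%), CXCR4 (17.4% and 9.21%) and CXCR6 (7.24% and 5.85%), and CXCR1 and CXCR2, the receptors of the neutrophil chemokines, had none. In the CC chemokine cluster of chromosome 17, 3 of 6 genes had a proliferating peak and 2 a senescent one, among them CCL2, the monocyte attractant (19.4% and 12.8%), CCL7 (11.3% and 12.4%) and CCL1 (3.97% and none). Beside these counts with a peak, 83.4% of all protein-coding genes had a proliferating, 80.3% a senescent and 34.4% a quiescent peak. Locus length was not matched.

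Genes of NF-kappaB subunits and their inhibitors, and of C/EBP and AP-1 factors, were read in the same way. Binding of these factors to the members' promoters was not measured. All 8 of RELA, NFKB1, NFKBIA, NFKBIZ, CEBPB, CEBPD, JUN and FOS had peaks in both proliferating and senescent cells. Of all genes 83.4% had a proliferating and 80.3% a senescent peak. All 8 had the lower value in senescent cells, as did 72.5% of all genes. At least 1.5-fold lower were 7 of the 8, as were 49.5% of all genes. CEBPD had 100% and 37.2%, CEBPB 100% and 33.7%, and JUN 69.9% and 15.1%. The difference between these genes and the members was not tested.

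By covered percent over the 3 libraries, the genes closest to CXCL3 were PEX39 on chromosome 6, 5.59 percentage points away (51.7%, 53.3% and 22.8%), ATOSB on chromosome 9, 6.98 away (51.9%, 52.5% and 19.6%), and MEPCE on chromosome 7, 10.0 away (52.0%, 55.2% and 13.2%). The distance is Euclidean over 3 values that differ in list length, and describes these lists alone. Locus length was not matched.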

How the data were processed

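MapR peak lists of 3 RH-MNase libraries were used, 1 per state, out of 6 libraries in the series. The build was GRCh38, and MACS2 (version 2.2.7.1), Bowtie2 (version 2.4.5) and FastQC (version 0.11.9) are named, all per the submitters' processing notes. Settings and any control library for the peak calls are not stated. The deposited lists give each peak's position (other values: start and end) and the authors' score, of unstated scale. Genes and promoters came from RefSeq tables of GRCh38.p14 (59792 genes before any were left out). Alternate sequences and the Y chromosome were then left out, and a gene with several starts was given the outermost. Overlaps of at least 1 bp, covered percents and a fold of 1.5 were computed with Python 3.11.15, pandas 2.3.3 and Biopython 1.88, and the interval code was tested on simulated data. A gene with a peak in 1 library of a pair counted as past the fold. No test between states was run, because each state has 1 library.

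The text names all members and their peaks, the protein-coding neighbours within 500 kb, up to 3 genes of each pathway list with the highest summed coverage, and the 3 genes closest to the most covered member. Members and lists were chosen with earlier results of these data known. Alternatives were other flanks, shorter lists, merged peaks and other overlap rules.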

Additional observations from a re-analysis of the deposited data

How the results depend on the processing

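Each state has 1 library and no read depth, so no interval or error between states can be given, and a missing peak may be one below the calling limit. Without flanks, members with a quiescent peak numbered 1, members higher in senescent cells 3 and members lower 4 (14.9% and 69.2% of all genes). With only the peaks that reach the median score of each list there were 9 proliferating and 1 quiescent cluster peaks, 1 member with a quiescent peak, and 5 peaks of each of the proliferating and senescent lists with a partner in the other; PF4V1 turned to 8.44 percentage points. At equal covered length the proliferating list had 8 cluster peaks, 0 members were lower in senescent cells (52.9% of all genes), and PF4V1 again turned to 8.44 points. With 9736 peaks in each list, members with a peak numbered 2 in proliferating and 3 in senescent cells, cluster peaks 2 and 3, peaks with a partner 2 in either direction, members higher in senescent cells 3 and lower 0 (12.3% and 33.8% of all genes), and members lower in quiescent than in proliferating cells 2. With a mutual overlap of 50% or more, 6 proliferating peaks had a senescent partner. Shares over all genes were computed for the directions between senescent and proliferating cells, and not for the other counts under these settings. The remaining 49 values of these counts stayed within 1.5 times those reported. No paired analysis was possible because each group has 1 library.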
